A study of Drosophila melanogaster with 27 samples.

Results

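The hemocyte genes followed here are *PPO1*, *PPO2*, *lz*, *Hml*, *Pxn*, *crq*, *NimC1* and *srp* of *Drosophila melanogaster*. A probe set was taken when the array's annotation gave one of these names as its only gene symbol, which found 9 probe sets for all 8 genes among 13966 probe sets, or 10843 genes with such a probe set. *PPO2* had 2 probe sets (142220_at and 141850_at) and each other gene had 1. *PPO1* (CG42639), *PPO2* (CG8193) and *lz* (CG1689) were grouped as crystal cell genes. *Hml* (CG7002), *Pxn* (CG12002), *crq* (CG4280) and *NimC1* (CG8942) were grouped as plasmatocyte genes, and *srp* (CG3992) was kept apart because both lineages use it.

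RNA was measured in whole *w1118* animals, a white-eyed laboratory strain, at 9 stages around pupariation, the moment when the larva turns into an immobile prepupa. These were larvae of the last instar at -18 and -4 h, prepupae at 0, 2, 4, 6, 8 and 10 h, and pupae at 12 h, and no stage carried another allele or treatment. Staging of larvae used food with 0.05% bromophenol blue. Every sample was a pool of 10 animals on its own array, with 3 arrays per stage and 27 in all, and the study states that its experiments were carried out independently.

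Hemocytes are the blood cells of the fly. Plasmatocytes, the most common kind, engulf bacteria and dying cells and secrete extracellular matrix, whereas crystal cells store prophenoloxidases, enzymes that are released and activated to make melanin at wounds. Serpent is the GATA factor needed to form blood cells in the embryo, and the Runx factor Lozenge then directs the crystal cell fate. At metamorphosis, plasmatocytes also clear the remains of larval tissues.

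The values are linear intensities, and since no calibration links different probe sets, each gene is compared only with itself across stages. Array medians lay between 249 and 277, and replicate arrays correlated at 0.956 or better over all probe sets at 0 h and later. The larvae varied more, with a lowest correlation between replicates of 0.864 at -18 h and 0.917 at -4 h. The arrays lying farthest from their stage means were -18 h replicate 2 and -4 h replicate 1, so calls against larvae that ended on leaving out 1 or both of them are marked as such. A floor of 60.26, the 10th percentile over all arrays, replaced lower values before the log2 transformation, and all 9 probe sets passed the filter on dim signals. A change was called when the limma test gave an adjusted p under 0.1 over all probe sets tested and the change was at least 1.5-fold. Standard errors (SE) are in log2 units.

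Across the 9 stages, 7 of the 9 probe sets changed by the moderated F-test and the fold limit, against 49.5% of all probe sets tested. Extremes at -18 h were common in the series. Of all probe sets that passed, 41.5% had their lowest stage mean there and 26.4% their highest. Ranges are between the highest and lowest stage means of log2 values. *PPO2* probe set 142220_at had the widest range among the 7, 15.96-fold (adjusted p = 1.1e-14), followed by *crq* at 3.79-fold (adjusted p = 0.00913) and *srp* at 3.49-fold (adjusted p = 0.00303). *PPO1* spanned 2.85-fold (adjusted p = 2.66e-07), *PPO2* 141850_at 2.58-fold (adjusted p = 4.52e-05), *Pxn* 2.12-fold (adjusted p = 0.0322) and *NimC1* 2.04-fold (adjusted p = 0.000537). *Hml* passed the p limit but not the fold limit (1.31-fold, adjusted p = 0.0171), and *lz* passed neither (at least 1.40-fold over the floor, adjusted p = 0.384). Without both deviating larval arrays the same 7 passed, but the order below *PPO2* 142220_at changed. *PPO1* then spanned 2.83-fold, *srp* 2.75-fold, *crq* 2.42-fold (adjusted p = 0.0581) and *Pxn* 1.61-fold. The lowest means of *crq* and *srp*, at -18 h, each include 1 floored array. Because whole animals were measured, the signal of these genes cannot be assigned to blood cells alone. Fewer blood cells and less of a transcript per cell cannot be told apart in any of these values either.

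*PPO1*, a prophenoloxidase of crystal cells, was at its highest in the younger larvae. Its intensities were 1281, 1239.6 and 1147 at -18 h, then 992, 515 and 566 at -4 h and 459, 492 and 472 at 0 h. All arrays at -18 h lay above every later array, and the -4 h arrays were split, with replicate 1 close to the younger larvae and the others close to prepupae. From 0 to 12 h the 21 arrays stayed between 403 and 542 (median 462). *PPO1* fell 1.85-fold at -4 h against -18 h (log2 change -0.89, SE 0.15, adjusted p = 0.000179), and 2.25-fold without both deviating larval arrays. The call was lost only when the 6 arrays of these stages were fitted alone (adjusted p = 0.187). The log2 change at 0 h against -4 h was -0.48 (adjusted p = 0.0508), under the fold limit, and it was called without replicate 2 (-0.66, adjusted p = 0.0076) or replicate 3 (-0.59, adjusted p = 0.0246) of -4 h. No step after pupariation was called for this gene, and at 12 h it was still 2.55-fold below -18 h (SE 0.15, adjusted p = 2.56e-07).

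*PPO2*, the other prophenoloxidase of crystal cells, fell and then partly came back by probe set 142220_at. This probe set read 4870.4, 2649.8 and 3689 at -18 h, 557, 661 and 721 at -4 h and 444, 616 and 502 at 0 h. It then read 263, 274 and 284 at 2 h, 223, 236 and 244 at 4 h and 229.9, 239 and 213 at 6 h. Later values were 316, 274 and 309.9 at 8 h, 499, 501 and 578 at 10 h and 747, 753 and 833 at 12 h. The 3 lowest stage means were thus those of 6, 4 and 2 h, and the arrays of 12 h lay above all those of 10 h. The probe set fell 5.64-fold at -4 h against -18 h (log2 change -2.50, SE 0.15, adjusted p = 5.69e-11) and a further 1.88-fold at 2 h against 0 h (adjusted p = 0.000647). It rose 1.75-fold at 10 h against 8 h (log2 change 0.81, SE 0.15, adjusted p = 0.00104). These 3 calls were kept under every alternative tried. The increase at 12 h against 10 h was 1.48-fold (adjusted p = 0.0252), just under the fold limit, and it was called without 10 h replicate 3 (log2 change 0.64, adjusted p = 0.035) or without replicate 1 or 2 of 12 h (0.59 each). At 12 h the intensity was 1.51-fold above 0 h (adjusted p = 0.00786) and 4.67-fold below -18 h (adjusted p = 8.12e-11). The call at 12 h against 0 h, close to the fold limit, was lost under 6 of 16 alternatives, among them those without 0 h replicate 1, 0 h replicate 3 or 12 h replicate 3.

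**Figure D1:**
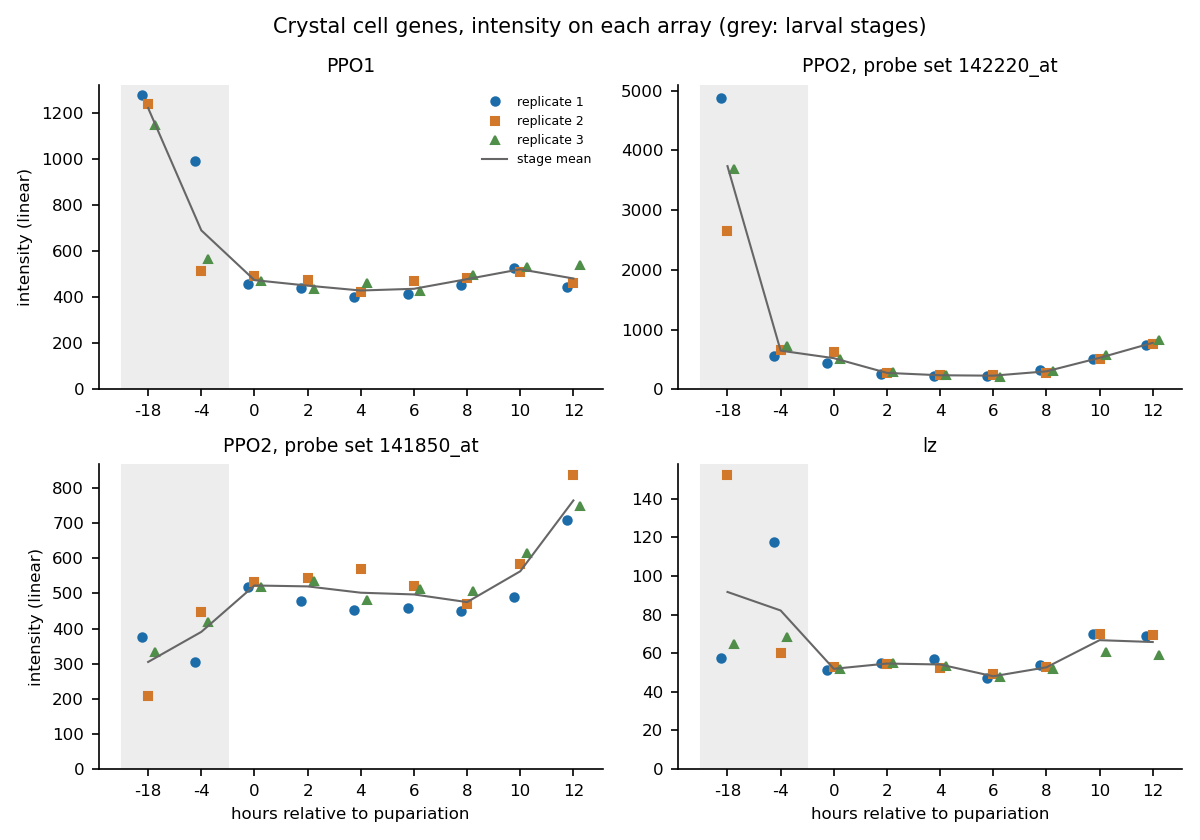
Linear intensity (vertical axis, from 0, one scale per panel) of the crystal cell probe sets on each array against hours relative to pupariation (stages evenly spaced, not to scale), with a symbol for each replicate number and a line through the stage means. *PPO1* and *PPO2* 142220_at are highest at -18 h, *PPO2* 141850_at is highest at 12 h, and the larval *lz* arrays reach 153 while those of 0 to 8 h stay at or under 56.9.

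The other *PPO2* probe set did not share this course. Probe set 141850_at read 375, 207 and 333 at -18 h, 305, 447 and 419 at -4 h and 517, 532 and 518 at 0 h. From 2 to 8 h its 12 arrays lay between 451 and 571. It then read 491, 584 and 614 at 10 h and 708, 836 and 749.8 at 12 h, so that the arrays of 12 h exceeded all others. By this probe set *PPO2* was 1.77-fold higher at 0 h than at -18 h (log2 change 0.82, SE 0.17, adjusted p = 0.000383) and 2.58-fold higher at 12 h than at -18 h (adjusted p = 6.99e-07). Without -18 h replicate 2, and without both deviating larval arrays, the log2 change at 0 h against -18 h was 0.56, under the fold limit, while the call at 12 h was kept under every alternative. No single step was called, and 12 h against 0 h was called with array weights or without 12 h replicate 1 (log2 change 0.60, adjusted p = 0.0278).

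The direction of *PPO2* across the larval stages therefore depends on which probe set is read. The log2 ratio of 142220_at over 141850_at within an array was 3.62 ± 0.13 at -18 h and 0.74 ± 0.16 by -4 h, reached -0.02 ± 0.22 at 0 h and -1.13 ± 0.13 by 6 h, and was 0.03 ± 0.16 when the pupae were collected at 12 h (SD, n = 3 each). Over the 27 arrays the probe sets correlated at -0.41, whereas their deviations from the stage means correlated at 0.74. The latter value rests largely on larval arrays. On -18 h replicate 2 the deviations were -0.45 for 142220_at and -0.51 for 141850_at, and on -18 h replicate 1 they were 0.43 and 0.34. From 0 h on no deviation of either probe set was larger in size than 0.26. Both were higher at 12 h than at 10 h on every array, with a log2 change of 0.57 for 142220_at and 0.44 for 141850_at (adjusted p = 0.137). The transcripts that each probe set detects are not given in the sources used here.

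*lz*, which encodes the Runx factor of crystal cells, was near the floor throughout. The arrays read 57.7, 153 and 65.0 at -18 h, 118, 60.3 and 68.3 at -4 h, 69.8, 70.1 and 60.5 at 10 h and 68.9, 69.3 and 59.3 at 12 h. All 15 arrays from 0 to 8 h were under the floor, and so were 17 of the 27 arrays in all. The larval means rested on -18 h replicate 2 and -4 h replicate 1, the deviating arrays. The log2 change at 0 h against -18 h was -0.48 (SE 0.24, adjusted p = 0.0894), under the fold limit, and -0.05 without -18 h replicate 2. It was called without replicate 1 (-0.72, adjusted p = 0.0146) or replicate 3 (-0.67, adjusted p = 0.0346) of -18 h, and 12 h against -18 h was called without -18 h replicate 1 (-0.59, adjusted p = 0.045). With all arrays and the floor, no change in *lz* was detectable at this low signal. With 16 added to every value and no floor, it passed the stage test (1.56-fold, adjusted p of the F-test 0.0733).

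*Hml*, the clotting protein hemolectin that is widely used to mark plasmatocytes, stayed level from 0 h on. It read 807, 615 and 749 at -18 h, 778, 684 and 626 at -4 h and 564, 529.5 and 595 at 0 h. The 21 arrays of 0 to 12 h lay between 482 and 639, and their stage means differed by little, from 547 to 566. Its log2 change at 0 h against -18 h was -0.35 (SE 0.11, adjusted p = 0.0137) and at 12 h against -18 h -0.39 (adjusted p = 0.00778). In both cases the arrays did not overlap, and neither change reached the fold limit.

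*Pxn*, which encodes the matrix enzyme peroxidasin, was higher in larvae than later, but with a wide spread. The arrays read 579, 1112 and 673 at -18 h, 1987, 519.8 and 536 at -4 h and 393, 409.7 and 413 at 0 h. From 0 to 12 h the range was 374 to 582, and 12 h replicate 3 held the highest of these values. All 3 arrays of 0 h lay under all 6 larval arrays. *Pxn* fell 2.02-fold at 0 h against -4 h (log2 change -1.02, SE 0.32, adjusted p = 0.0482). Without -4 h replicate 1 the fall was 1.30-fold (adjusted p = 0.381), as it was without both deviating larval arrays (adjusted p = 0.0692), and the call also ended on leaving out 0 h replicate 1 (adjusted p = 0.153) or 0 h replicate 2 (0.119), with array weights, or when only the 6 arrays were fitted. *Pxn* was 1.87-fold lower at 0 h than at -18 h (adjusted p = 0.024), and 1.54-fold lower without -18 h replicate 2 (adjusted p = 0.149). At 12 h against -18 h it was 1.64-fold lower (adjusted p = 0.0758) with overlapping arrays, and 1.35-fold lower, under the fold limit, without -18 h replicate 2 (adjusted p = 0.336) or without both deviating larval arrays (adjusted p = 0.0075). This call also ended on leaving out 12 h replicate 1 (adjusted p = 0.196) or 12 h replicate 2 (0.184), or when only those 6 arrays were fitted.

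*crq* encodes croquemort, a scavenger receptor that plasmatocytes use to engulf apoptotic cells, and it moved the opposite way. It read 295, 27.95 and 183 at -18 h, 76.3, 275 and 230.3 at -4 h and 624, 481 and 375 at 0 h. From 0 to 12 h the 21 arrays lay between 312 and 857 (median 466), so all of them exceeded all 6 larval arrays. Stage means were highest at 4 h (579 ± 181) and lowest at -18 h (169 ± 134, SD, n = 3 each), and those of 0 to 12 h overlapped each other. *crq* was 2.86-fold higher at 0 h than at -4 h (log2 change 1.51, SE 0.50, adjusted p = 0.0596). This call was lost without -4 h replicate 1 (1.92-fold, adjusted p = 0.436), without both deviating larval arrays (adjusted p = 0.168), on leaving out 0 h replicate 1 (adjusted p = 0.222) or 0 h replicate 2 (0.142), and when only the 6 arrays were fitted. At 0 h against -18 h *crq* was 3.26-fold higher (SE 0.50, adjusted p = 0.00801), a call kept under every alternative, although without -18 h replicate 2 the value was 2.08-fold. At 12 h it was 3.28-fold above -18 h (adjusted p = 0.00846), or 2.09-fold without -18 h replicate 2, and the call ended only in the fit to the 6 arrays (adjusted p = 0.113).

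*NimC1*, a Nimrod receptor with which plasmatocytes take up bacteria, had its highest stage mean at 0 h and its lowest at 10 and 12 h. It read 146, 113 and 111 at -18 h, 109.5, 154 and 170.4 at -4 h and 215, 171 and 163 at 0 h. From 2 to 8 h the 12 arrays lay between 95.3 and 209. The values were then 163, 149 and 138 at 8 h, 102, 84.4 and 82.1 at 10 h and 103, 77.6 and 88.9 at 12 h. *NimC1* fell 1.68-fold at 10 h against 8 h (log2 change -0.75, SE 0.20, adjusted p = 0.0218), with no overlap between the arrays. A floor at the 20th percentile (102.67), which is above every array of 10 and 12 h, ended the call. Leaving out 8 h replicate 1 (adjusted p = 0.107) or 10 h replicate 3 (adjusted p = 0.104) ended it as well. At 12 h the gene was 2.04-fold below 0 h (SE 0.20, adjusted p = 0.000559), a call kept under every alternative. Its 1.49-fold higher value at 0 h against -18 h missed the fold limit (adjusted p = 0.0221), and it was called with quantile normalization, with array weights and without -18 h replicate 1 (log2 change 0.70, adjusted p = 0.0104), 0 h replicate 2 (0.62) or 0 h replicate 3 (0.65).

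*srp*, the GATA factor that both lineages need, was lowest at -18 h and highest at 12 h. It read 164, 34.8 and 93.9 at -18 h, 114, 188 and 250.4 at -4 h and 379.7, 239 and 226 at 0 h. At the end of the series it read 208, 158 and 166 at 8 h, 363, 255 and 321 at 10 h and 515, 287 and 267 at 12 h. All 3 arrays of 0 h and of 12 h exceeded all 3 of -18 h. *srp* was 1.80-fold higher at -4 h than at -18 h (adjusted p = 0.0904) with overlapping arrays, and this call was lost under 9 of 16 alternatives, among them leaving out -18 h replicate 2 (log2 change 0.50, adjusted p = 0.353), -18 h replicate 3 (0.179), -4 h replicate 2 (0.209) or -4 h replicate 3 (0.368). The longer spans held under every alternative. *srp* was 2.81-fold higher at 0 h than at -18 h (SE 0.35, adjusted p = 0.00134) and 3.49-fold higher at 12 h than at -18 h (adjusted p = 0.000212), or 2.21-fold and 2.75-fold without -18 h replicate 2. At 10 h against 8 h the log2 change was 0.82 with no overlap, which did not pass (adjusted p = 0.223) but did with the replicate block (adjusted p = 0.0956), with array weights, when only the 6 arrays were fitted, and without both deviating larval arrays (adjusted p = 0.0737). The value at 0 h against -4 h was called only without -4 h replicate 3 (log2 change 0.90, adjusted p = 0.0891). Both *srp* and *crq* were under the floor on -18 h replicate 2.

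**Figure D2:**
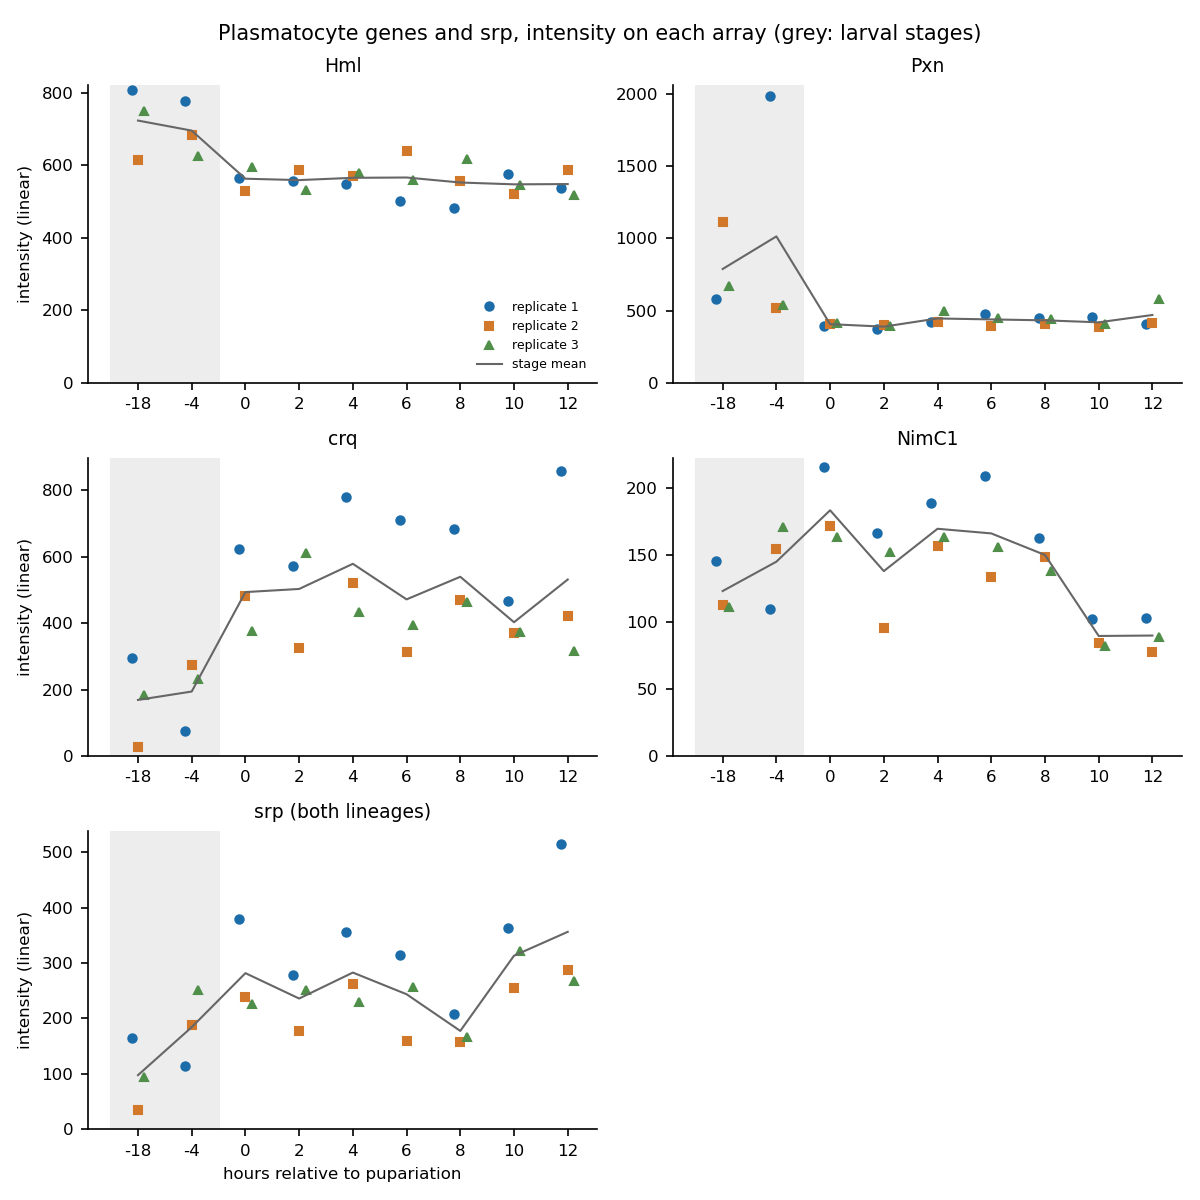
Linear intensity (vertical axis, from 0, one scale per panel) of *Hml*, *Pxn*, *crq*, *NimC1* and *srp* on each array against hours relative to pupariation (stages evenly spaced, not to scale), with the same symbols for replicate numbers. *crq* lies between 312 and 857 from 0 h on, above all larval arrays, *NimC1* is lowest at 10 and 12 h, and *Pxn* has its highest array, 1987, at -4 h.

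Counted by step, calls among the members lay at -4, 0, 2 and 10 h. Of the 72 tests over the 8 steps, 8 passed (11.1%), against 5.72% over all probe sets and steps, and 6 of the 9 probe sets passed at least 1 step, against 25.7% of all. At -4 h against -18 h 1 probe set rose (9.86% of all) and 2 fell (3.66%), with 13.5% of all probe sets called. At 0 h against -4 h 1 rose (4.61% of all) and 1 fell (3.38%), with 7.98% called. At 2 h against 0 h only *PPO2* 142220_at passed (2.64%), and at 10 h against 8 h 1 rose (2.03% of all) and 1 fell (3.38%), with 5.41% called. None of the 9 passed at 4 h against 2 h (2.75%), 6 h against 4 h (3.33%), 8 h against 6 h (5.26%) or 12 h against 10 h (4.88%). Arrays did not overlap for 6 of the 9 at 0 h against -4 h (35.5% of all probe sets) and for 5 at 10 h against 8 h (38.5%). The number of step calls was 5 without 0 h replicate 2.

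Over the longer spans, 6 of the 9 probe sets were called at 0 h against -18 h (33.4% of all) and the same number at 12 h against -18 h (29.1%). In each, *PPO1*, *PPO2* 142220_at and *Pxn* were lower (14.5% of all at 0 h and 11.7% at 12 h), and *PPO2* 141850_at, *crq* and *srp* were higher (18.9% of all at 0 h and 17.4% at 12 h). Arrays did not overlap for 8 of the 9 at 0 h against -18 h (55.9% of all) and for 7 at 12 h against -18 h (40.7%). These spans share the -18 h arrays. At 6 h against 0 h only *PPO2* 142220_at was called, 2.27-fold lower (adjusted p = 3.73e-06, 11.1% of all), and at 12 h against 0 h it was higher (5.34% of all) and *NimC1* lower (7.81%), with 13.2% called.

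Taken as classes, the crystal cell probe sets had a median log2 change from -18 h of -0.92 at 0 h and -0.85 at 12 h. The plasmatocyte genes had medians of 0.11 and -0.42 at these stages, and all probe sets tested -0.04 and 0.00. The crystal cell median lies midway between *PPO1* and *lz* at 0 h, and *lz* was under the floor on all arrays of that stage. The difference between the class medians at 0 h was -1.03, and -1.48 leaving out *lz*. With *PPO2* 141850_at alone it was -0.59, where the crystal cell median is the *lz* value itself, and with 142220_at alone it was -1.48, where it is that of *PPO1*. Without -18 h replicate 2 it was -0.73 and without -18 h replicate 1 it was -1.24. Neither class moved as a unit, since at 0 h the changes spanned -2.81 to 0.82 among crystal cell probe sets and -0.90 to 1.71 among plasmatocyte genes. The log2 ratio of *PPO1* over *Hml* within an array, where only the course over stages can be read, was 0.76 ± 0.22 at -18 h and -0.07 ± 0.39 by -4 h, reached -0.25 ± 0.12 at 0 h and -0.40 ± 0.07 by 4 h, and was -0.19 ± 0.22 in pupae at 12 h (SD, n = 3 each). All 3 ratios at -18 h were above those of every later stage. Ratios of *PPO1* over *Pxn* at -18 h, in contrast, overlapped those of several later stages. Ratios of *PPO1* over *crq* and over *NimC1* at -18 h overlapped later ones only through -4 h replicate 1, a deviating array. That array had log2 ratios of 3.70 over *crq* and 3.18 over *NimC1*, where the lowest at -18 h were 2.12 and 3.14.

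**Figure D3:**
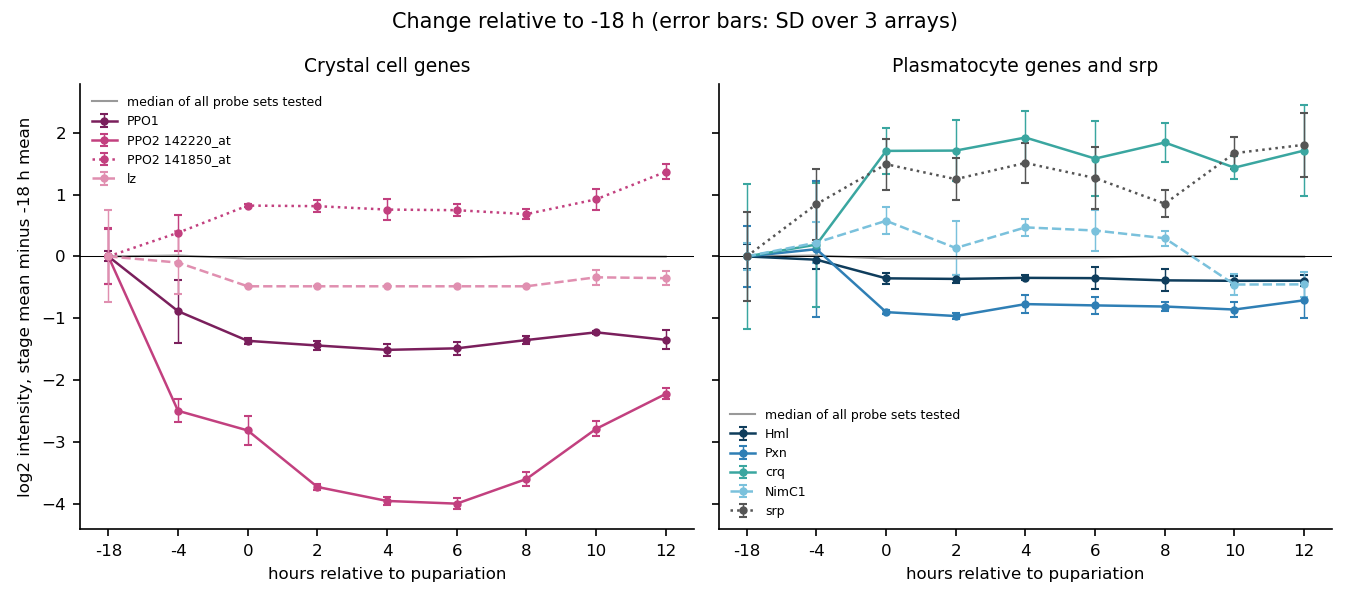
Stage mean of log2 intensity minus that of -18 h (vertical axis) against hours relative to pupariation (stages evenly spaced, not to scale) for crystal cell genes (left) and for plasmatocyte genes and *srp* (right), with bars of 1 SD over 3 arrays and a grey line for the median of all probe sets tested. At 0 h the values run from -2.81 to 0.82 on the left and from -0.90 to 1.71 on the right.

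The deviations of replicate arrays from their stage mean were shared between some of these genes. From 0 to 12 h, replicate 1 held the highest value at 7 of 7 stages for *NimC1* and *srp* and at 6 of 7 for *crq*, and the lowest at 7 of 7 for *PPO2* 141850_at. Deviations from the stage means correlated at 0.92 between *crq* and *srp*, 0.84 between *NimC1* and *srp* and 0.84 between *PPO1* and *Pxn*. They correlated at -0.71 between *crq* and *Pxn* (27 arrays, 18 residual degrees of freedom, values from the same arrays). The 2 values with *Pxn* rest mainly on the larval arrays, since from 0 h on no deviation of *Pxn* was larger in size than 0.33. The deviations of *lz* correlated at -0.86 with *PPO2* 141850_at and -0.77 with *PPO2* 142220_at. Fewer arrays bear on these *lz* values, since it was floored on all 15 arrays of 0 to 8 h and deviated by 0 there. At 10 and 12 h its deviations lay between -0.14 and 0.07, so both *lz* correlations rest mainly on the larval arrays. On -18 h replicate 2 *lz* and *Pxn* lay 0.86 and 0.56 above their stage means on the log2 scale, while *crq* and *srp* deviated by -1.30 and -0.69. On -4 h replicate 1 *Pxn* and *PPO1* lay 1.28 and 0.59 above, while *crq* and *srp* deviated by -1.15 and -0.62. The part of these shared deviations in the stage differences was not tested beyond leaving the arrays out.

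**Figure D4:**
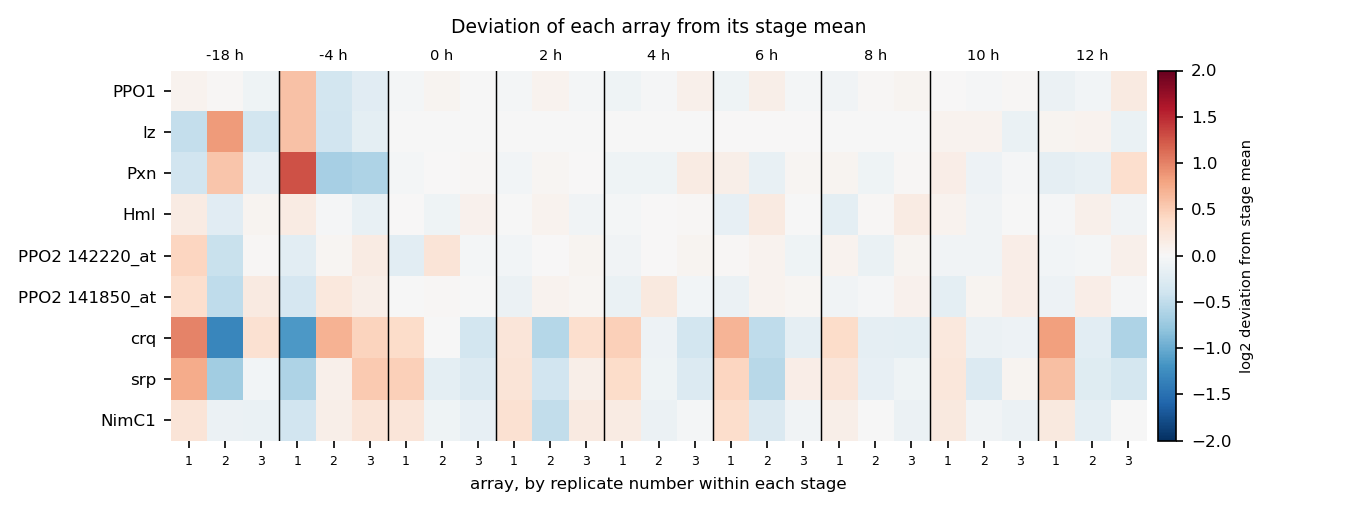
Deviation of each array from its stage mean in log2 units (colour, red above and blue below) for the 9 probe sets (rows) on the 27 arrays (columns, by stage and replicate number). *Pxn* reaches 1.28 on -4 h replicate 1, where *crq* is at -1.15.

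The genes whose course over the 27 arrays was most like that of each member past the stage test were sought among 5643 probe sets with 1 gene symbol that also passed the stage test. *PPO1* was closest to *alpha-Est2* (r = 0.98), *CG10154* (0.97) and *Vha100-4* (0.97), and *PPO2* 142220_at to *Mlc1*, *CG31463* and *Mp20* (0.93 each). *PPO2* 141850_at was closest to *na* (0.93), *sws* (0.92) and *mtd* (0.91). *crq* was closest to *IscU* (0.97), *Taf3* (0.97) and *gw* (0.96), *Pxn* to *ppk18* (0.97), *MAGE* (0.96) and *hec* (0.94), *NimC1* to *jagn* (0.92), *VhaM9.7-c* (0.91) and *vib* (0.90), and *srp* to *CG6961* (0.93), *CG12581* (0.93) and *bif* (0.92). Such likeness was common, with r above 0.8 for 11.9% of these probe sets against *PPO1* and 10.1% against *crq*, but 0.727% against *NimC1*. These r values include deviations of single arrays from their stage means, such as 1.28 for *Pxn* and -1.15 for *crq* on -4 h replicate 1. Their values without the deviating larval arrays were not calculated. None of these 6 hemocyte genes was among the closest genes of another, and *Hml* and *lz*, which did not pass the stage test, were not compared.

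Other plasmatocyte genes, receptors among them, differed among themselves, as the members did. Of 15 further plasmatocyte genes listed, 10 were measured and 6 passed the stage test, against 49.5% of all probe sets. *drpr*, which encodes the engulfment receptor Draper, averaged 2182 ± 270.4 at 4 h and 388 ± 169.9 at -18 h (SD, n = 3 each), a 5.99-fold range of stage means (adjusted p = 5.01e-07), as read by a probe set that can also match related transcripts. *Sr-CI*, a scavenger receptor for bacteria, averaged 303 at 8 h, at least 5.02-fold above -18, -4 and 0 h, where its means of 47.5, 33.4 and 39.5 were under the floor (adjusted p of the F-test 5.22e-08). *NimB5*, a secreted Nimrod protein, was lowest at 4 h and highest at -18 h (1.66-fold, adjusted p = 5.26e-07). At 0 h against -18 h 1 of the 10 rose and 2 fell, close to the shares of all probe sets (18.9% and 14.5%).

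**Figure D5:**
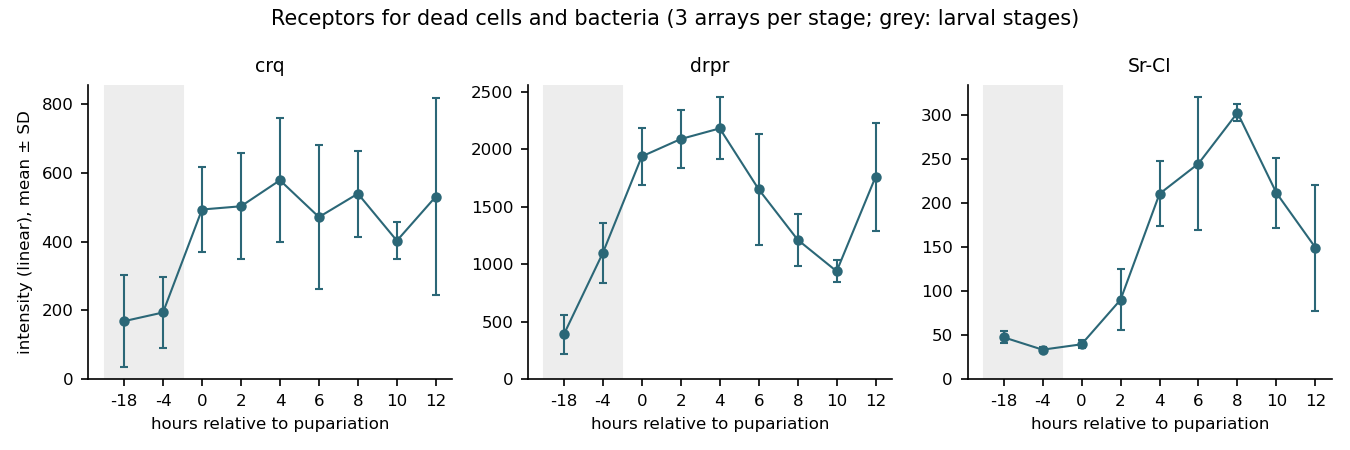
Mean intensity with bars of 1 SD over 3 arrays (linear vertical axis, from 0, one scale per panel) of *crq*, *drpr* and *Sr-CI* against hours relative to pupariation (stages evenly spaced, not to scale). *crq* and *drpr* have their highest stage mean at 4 h, and *Sr-CI* has it at 8 h. Other Nimrod and receptor genes that are not drawn here differ, with *NimC1* lowest at 10 h and *NimB5* highest at -18 h and lowest at 4 h.

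Of 7 further crystal cell genes 4 were measured and 3 passed the stage test, and here and in the lists that follow the share of all probe sets was the same 49.5%. The malic enzyme gene *Men* had its highest stage mean at 8 h (6410.4 ± 436). Its means of -4 and 0 h were the lowest, 1176 ± 663 and 1127 ± 43.6. The younger larvae, of -18 h, varied widely (2328 ± 1182, SD, n = 3 each). Between means of log2 values *Men* spanned 5.99-fold (adjusted p = 8.62e-08). *peb* took another course, highest at 2 h and lowest at 8 h (1.86-fold, adjusted p = 0.00214). *Bgb* missed the fold limit (1.46-fold, adjusted p = 6.61e-05). All 6 measured genes of lamellocytes, the blood cells that encapsulate parasites, passed, with *cher* (filamin) spanning 5.69-fold, *msn* 3.96-fold and the surface marker *atilla* 2.01-fold. Among lineage regulators 6 of 12 measured genes passed, about the share of all probe sets, and those with the lowest F-test p differed in their course. *Pvf1* was highest at 8 h and lowest at 4 h (1.92-fold, adjusted p = 8.45e-06), and *Pvf3* was highest at 6 h and lowest at 0 h (1.52-fold, adjusted p = 6.43e-05). The receptor gene *Pvr* was highest at 4 h and lowest at -18 h (2.67-fold, adjusted p = 7.33e-05). These genes are used in other tissues as well, so their levels are not those of hemocytes alone.

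Around the prophenoloxidases themselves, 10 of 12 measured genes of melanization passed. *ple* (tyrosine hydroxylase) and *Pu* (GTP cyclohydrolase), which also serve cuticle tanning, peaked at 0 h with ranges of 20.5-fold and 39.4-fold, at the stage where *PPO1* and *PPO2* 142220_at were 2.57-fold and 7.03-fold below -18 h and *PPO2* 141850_at was 1.77-fold above it. The inhibitor *Spn28Dc*, a serpin of the melanization cascade, was highest at 10 h (8.90-fold, adjusted p = 2.42e-15). At 0 h against -18 h 7 of the 12 were called higher and 1 lower, against 18.9% and 14.5% of all probe sets. Basement membrane genes passed in 8 of 9 cases, and their *vkg* (a collagen IV chain) and *SPARC* were highest at 8 h, while *trol* (perlecan) was highest at 10 h. Of 10 clotting and hemolymph genes 9 passed, and *fon*, a clotting factor, spanned 26.7-fold. Of 7 measured fat body genes 3 passed, also near that share. *Fbp1*, a receptor for larval serum proteins that is in both of these lists, spanned 1.61-fold.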

How the data were processed

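The authors hybridized labelled RNA of 10 whole animals per sample to Affymetrix Drosophila Genome Arrays and used dChip to normalize the arrays and compute the deposited values, which are linear intensity values per probe set. The use of mismatch probes was not given in the sources used here. Groups came from the sample titles. Of 13966 probe sets, 12442 had 1 gene symbol, 327 several and 1197 none, and 12393 were matched by gene number to RefSeq names (Release 6 plus ISO1 MT), used for names only.

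Values were floored at 60.26 and log2-transformed, and the 12854 probe sets above the floor on all 3 arrays of a stage were tested. All 27 arrays entered 1 fit with stage as the only factor (lmFit and eBayes of limma 3.58.1, R 4.3.3). P-values were adjusted by Benjamini-Hochberg over all probe sets tested, and changes were called under an adjusted p of 0.1 at 1.5-fold or more, after the study's false discovery rate and fold limit. SAM, which the study used, was not run. Precision is limited by 3 arrays per stage. The procedure was tested on simulated data, and figures were drawn with matplotlib 3.10.9.

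The members and gene lists were chosen with earlier results of these data known. The text names all members, up to 3 genes per list with the lowest F-test p, and the 3 probe sets most alike to each member past the F-test. Alternatives changed the normalization, the floor (with a pseudocount of 16 as another), the filter, array weights, a replicate block and the arrays fitted.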

Additional observations from a re-analysis of the deposited data

How the results depend on the processing

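The number of members past the stage test was 7, and 7 without any 1 array in turn. With 16 added to every value and no floor it was 8, since *lz* passed. The 8 step calls became 5 when each pair of stages was fitted alone, 6 to 9 under the other settings, and 5 to 9 on leaving out each array, the lowest without 0 h replicate 2. The 6 calls at 12 h against -18 h became 4 in the fit to the 6 arrays alone, 5 without both deviating larval arrays and 5 to 7 on leaving out each array. The class difference at 0 h against -18 h, -1.03, was -0.89 with the floor at the 20th percentile, -1.24 to -0.73 on leaving out each array, and, in choices made after seeing the data, -1.48 leaving out *lz*, -1.48 with *PPO2* 142220_at alone and -0.59 with 141850_at alone, which rests on the floored *lz* values. The causes were not tested. No called value changed sign. With the replicate block there were 7 members past the stage test, 9 step calls (*srp* gained at 10 h against 8 h) and 6 calls at 12 h against -18 h, and all 30 calls were kept. Over all pairs of stages, deviations of same-numbered arrays correlated between -0.82 and 0.63, above 0.1 in 57 of 108 cases, so the numbers were not taken to pair the samples throughout. At 12 h against 0 h all 3 same-numbered pairs were above 0.1 (0.28 to 0.56, against -0.47 to 0.03 for different numbers), and at 10 h against 8 h 2 of 3 were. Array weights stopped before converging fully. Low signal limits *lz*, with 17 of 27 arrays under the floor, and also *NimC1* at 10 and 12 h, where every array lay under the 20th percentile (102.67).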
